A study of Malus domestica with 5 samples.

Results

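Of the 429395 numbered repeats in the deposited small RNA counts of apple (Malus domestica), 1465 had 5 or more counts in each of the 3 libraries of reproductive buds and 0 counts in both libraries of juvenile buds. They are 0.341% of the repeats. They are called reproductive-only repeats here, and the counts themselves chose them, so their difference between the phases is a description and was not tested. The reproductive libraries come from buds labelled as reproductive phase. The juvenile libraries come from buds labelled as juvenile phase, whose tissue is given as juvenile-like suckers, shoots from the stem base. Phase and kind of shoot therefore cannot be told apart, the labels name neither cultivar nor tree age, and they do not say whether replicates came from separate trees. No treatment is named for either group.

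Repeats are stretches of the genome that occur in many copies, such as transposable elements. In plants, many small RNAs from repeats are small interfering RNAs made from double-stranded RNA, and the class of 24 nt guides DNA methylation that keeps transposable elements silent. Libraries were made from gel-purified RNA of 19 to 24 nt, which spans this class and the miRNAs. The table gives no length, sequence, position or element name for a repeat, so the class of RNA behind each count was not analysed here and no sequence is shown. A repeat is known by its number alone, and that number is not a coordinate.

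All features together summed to between 122455352 and 140173167 counts in the reproductive libraries, and to 97283456 and 85087230 counts in juvenile replicates 1 and 2. A typical repeat differed more than these sums did. The median count over all repeats was 34, 31 and 34 in reproductive replicates 1, 2 and 3, against 10 and 7 in juvenile replicates 1 and 2. TMM scaling, which is centred on the typical feature, put the reproductive libraries together at 4.57 times the size of the juvenile ones, and the sums alone put them at 2.12 times. Many features carry the same counts as another one, so 1 read may be counted under several features. The number of reads is unknown, and every depth figure here covers counting error only.

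The reproductive-only repeats were rare small RNA sources. Their counts summed to 13157, 13616 and 15567 in reproductive replicates 1, 2 and 3, which is 0.00939%, 0.0111% and 0.0126% of each library, and to 0 in both juvenile libraries by the rule. A single one had a median of 8 counts in reproductive replicate 1, 8 in replicate 2 and 9 in replicate 3, well under the median of all repeats in those libraries. The highest counts of any were 27, 43 and 55 in the same order. Summed over the 3 reproductive libraries they had a median of 26 counts, with 210 repeats at 15 to 19 counts, 756 at 20 to 29, 402 at 30 to 49 and 97 at 50 to 114. Few of them were far above the minimum of 15 counts that the rule sets.

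**Figure D1:**
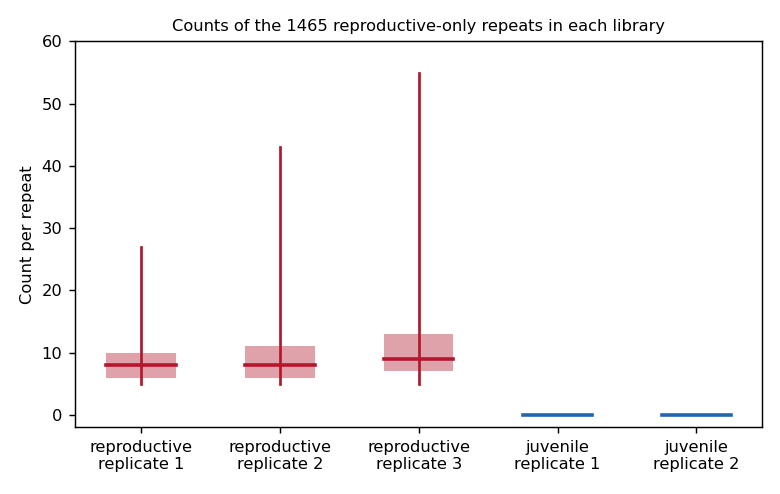
Counts per repeat (linear axis) of the 1465 reproductive-only repeats in the 3 reproductive and 2 juvenile libraries; thick lines are medians, boxes the middle 50% of repeats and thin lines the full range. Medians are 8, 8 and 9 in the reproductive libraries, and the juvenile libraries are at 0 because the rule asks for it.

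Just inside the rule, 422 repeats with no juvenile count had a lowest reproductive count of exactly 5. Just outside it, 913 repeats with no juvenile count had a lowest reproductive count of 4, and 3620 repeats with 5 or more in each reproductive library had 1 juvenile count in all. Only 247 repeats with no juvenile count reached 10 in each reproductive library, and 26 reached 20. Among repeats with no juvenile count, the set is thus the upper end of a continuous range of reproductive counts. It has no gap at its border.

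Since both juvenile libraries held 0, a fold can be given only as a nominal lower bound, taken against 3 counts over the juvenile group. The repeats were chosen for those 0 counts, so the bound is no true minimum of the difference between the phases. TMM-scaled library size with no difference between the phases gives 221 such repeats. With TMM-scaled sizes the nominal bound of the median reproductive-only repeat was 1.90-fold, with bounds over the repeats from 1.09 to 8.31. For 606 of the 1465 the bound was above 2. With sums alone as sizes the bounds ran from 2.36 to 18.0, with a median of 4.10. How far these repeats stand from the juvenile level therefore depended on the scaling by more than 2-fold.

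The highest set of counts stood under 2 repeats, repeat_1120100 and the next number, each with 16, 43 and 55 counts in reproductive replicates 1, 2 and 3, against 0 in both juvenile libraries. The level of repeat_1120100 was 0.304 ± 0.171 CPM (SD, n = 3), where CPM is the count scaled to the library's sum. Its nominal bound, taken from the counts that chose it, was 8.31-fold with TMM-scaled sizes. Next below these, repeat_1120052 had 15, 43 and 55 counts, against 0 in both juvenile libraries. It differed from repeat_1120100 only in reproductive replicate 1, and whether the same reads were counted under both was not tested. Its level was 0.301 ± 0.175 CPM (SD, n = 3) and its nominal bound 8.24-fold. In all 3, reproductive replicate 1 was well below the other reproductive libraries, and TMM-scaled reproductive libraries more than 3-fold apart were found in 27 reproductive-only repeats. The 2 named repeats lie 48 numbers apart. Among the 145 other repeats from 50 numbers before the first to 50 numbers after the second that were not reproductive-only, 13 had no juvenile count, and the median was 67 counts over the reproductive libraries and 7 over the juvenile ones. Small RNAs of most neighbouring repeats were thus counted in juvenile buds.

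In the profiles next below these by sum the counts were more even. The next profiles by sum were 26, 37 and 29 counts, then 23, 21 and 35, then 16, 32 and 29 in reproductive replicates 1, 2 and 3, each against 0 in both juvenile libraries. Over all reproductive-only repeats, the highest TMM-scaled reproductive library was a median of 1.58 times the lowest, and it was more than 2 times the lowest in 21.9% of them. Other repeats with 5 or more counts in each reproductive library and up to 114 in all had a median of 1.48 times and 15.0%, at a higher median sum of 53 counts. After TMM scaling, reproductive replicate 3 was the highest library for 679 reproductive-only repeats, replicate 2 for 508 and replicate 1 for 278. Their summed TMM-scaled level was 70.7, 82.5 and 88.7 CPM in reproductive replicates 1, 2 and 3, a mean of 80.6 ± 9.14 (SD, n = 3). Replicate 1 was thus the least often high of the reproductive libraries.

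How many such repeats library size alone would give was computed by sharing out each repeat's total count over the 5 libraries in proportion to that size. With TMM-scaled sizes this gave 221 repeats, against 1465 in the table, or 6.63 times as many. With sums alone it gave 4.70 repeats, and with DESeq2 size factors 232. TMM-scaled sizes take the typical feature as equal between the phases. Numbers given by depth below use them unless another scaling is named. Counting each distinct set of counts once, the table held 702 and TMM-scaled sizes gave 104, a quotient of 6.77. Sets that differ in any library, however little, are taken as distinct. The computation gives every repeat the same balance between the phases, while of the features tested 21.1% were called higher in reproductive buds and 24.3% lower by edgeR's quasi-likelihood test.

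The quotient of observed to depth-given repeats grew with the count. Among repeats with a total of 15 to 19 counts, 210 of 10895 were reproductive-only, against 80.0 given by TMM-scaled depth, a quotient of 2.62. At totals of 20 to 29 the table held 756, against 121 from depth, and at 30 to 49 it held 402, against 19.5. At totals of 50 to 114 it held 97 of 47225 repeats, against 0.272. The lowest reproductive-only repeats were therefore those that depth came nearest to giving, and the rarer, higher ones were those it came least near to. The number given by depth falls steeply with the total. Any difference in balance between repeats thus raises the quotient most at high totals, and its growth was not tested.

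Repeats with similar reproductive counts usually did have juvenile counts. Of 91211 repeats with 5 or more counts in each reproductive library and a reproductive sum of 15 to 114, the reproductive-only ones made up 1.61%, and the median juvenile sum was 8. In the narrower range of 22 to 33 reproductive counts, which holds the middle of the reproductive-only repeats, the median juvenile sum was 4 and 4.43% had none. Juvenile sums of 1 and 2 were more frequent than 0, with 3614 and 5026 of the 91211 repeats. Zero was thus the tail of the juvenile distribution and formed no peak of its own.

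**Figure D2:**
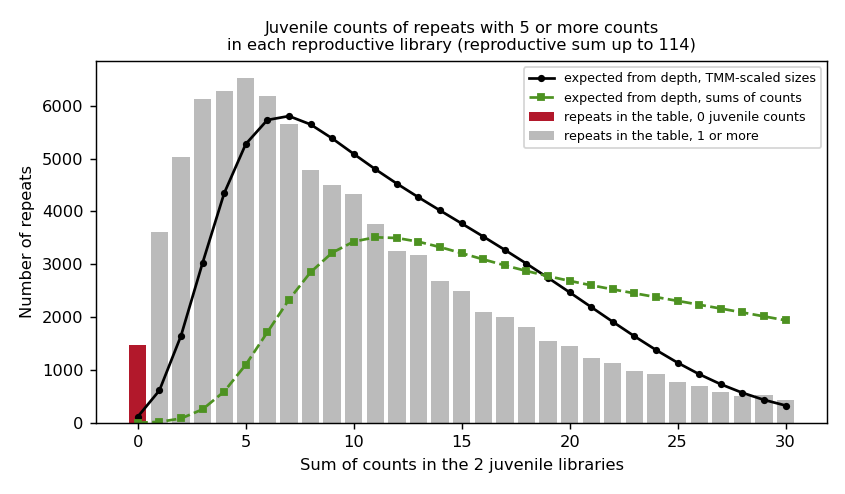
Number of repeats (y axis) by the sum of counts in the 2 juvenile libraries (x axis, up to 30) for repeats with 5 or more counts in each reproductive library and a reproductive sum of up to 114; lines give the number obtained by sharing out the total of each of these repeats by library size alone. The bar at 0 holds the 1465 reproductive-only repeats and continues a slope down from the bars at 1 and 2, and it stands above both lines. At 0 the line of TMM-scaled sizes is at 115, taken over the plotted repeats only and with no minimum per library. The rule itself, taken over all repeats, gives 221.

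The juvenile libraries contributed unequally to this tail. With juvenile replicate 1 left out of the rule, 9971 repeats had 5 or more in each reproductive library and 0 in juvenile replicate 2, and depth gave 3138. With juvenile replicate 2 left out, 4018 had 0 in juvenile replicate 1, and depth gave 1485. The quotient of observed to depth-given repeats fell to 3.18 and 2.71 in these cases, against 6.63 with both libraries. Of the 4018 repeats at 0 in juvenile replicate 1, 36.5% were also at 0 in juvenile replicate 2, and 1326 had a single count there. Of the 9971 at 0 in juvenile replicate 2, only 14.7% were also at 0 in juvenile replicate 1. The others had a median of 2 counts in juvenile replicate 1 and at most 29. With any 1 reproductive library left out, between 1892 and 2092 repeats met the rule and the quotient was 4.70 to 5.90.

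The reverse pattern, 0 in all 3 reproductive libraries and 5 or more in both juvenile ones, was met by 0 repeats. Depth would give almost none either, at 3.50e-05 repeats with TMM-scaled sizes and 0.0173 with sums alone, because the reproductive libraries are larger and more numerous. Depth alone therefore does not give the 2 patterns equally. Without any minimum, 43352 repeats had reproductive counts and no juvenile count, and 2333 had juvenile counts and no reproductive count. Of the 2333, 2032 had a single count. The highest had 0 counts in each reproductive library, against 2 and 5 counts in juvenile replicates 1 and 2, and no other exceeded 5 counts in all.

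Among features that are not repeats, none of the 207 named apple miRNAs and none of the 172 candidate miRNAs of one series met the reproductive-only rule. Of the 269 candidates of the other series 8 did, and none of the 3 classes met the reverse rule. Of these 8 candidates, 6 shared the counts 7, 6 and 8 in reproductive replicates 1, 2 and 3, against 0 in both juvenile libraries. The same counts stood under 6 of the reproductive-only repeats.

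Identical counts were common among the reproductive-only repeats. The 1465 repeats held 702 distinct sets of counts, and 1068 repeats, or 72.9%, shared theirs with at least 1 other. Low counts coincide easily, and the share was 98.1% at totals of 15 to 19, where 83.8% of other repeats of that total also shared all 5 counts. At totals of 20 to 29 it was 84.1%, against 68.1% of other repeats. At 30 to 49 it was 46.3%, against 44.0%, and at 50 to 114 it was 41.2%, against 25.7%. The comparison is not like for like, since the juvenile counts of the reproductive-only repeats are fixed at 0.

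The most frequent set of counts, 7, 6 and 12 in reproductive replicates 1, 2 and 3 against 0 in both juvenile libraries, stood under 22 repeats. Of these, 21 lay within 100 consecutive repeat numbers. The next, 5, 5 and 7 counts against 0 in both juvenile libraries, stood under 20 repeats, of which at most 3 lay within 100 numbers. The third, 10, 6 and 9 counts against 0 in both, stood under 13 repeats with at most 5 within 100 numbers. Identical counts thus came both in tight groups and scattered over the numbering. Of the 1068 repeats that shared their counts, 266 had the nearest such partner within 10 numbers and 650 had it more than 1000 numbers away.

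Reproductive-only repeats lay close together in the numbering, a property that the rule did not use. Of the 1465, 246 or 16.8% had another at the next or previous number, where an even spread over all repeats would give 0.681%. Within 10 numbers the share was 38.4%, against 6.61% from an even spread. The median gap was 61 numbers. All repeats were 293 times as many as the reproductive-only ones, which gives a mean spacing and no median to set beside it. The even spread counts every repeat, also the 36143 with no count in any library. Repeats with similar reproductive counts were themselves uneven along the numbering, and their share of neighbours was not computed. How far the closeness is particular to reproductive-only repeats was thus not tested. Most touching repeats had the same counts, as did 109 of the 139 consecutive pairs. With partners of identical counts left out, 59 repeats or 4.03% still touched another. How far shared reads account for the closeness was not tested.

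In windows of 1000 numbers the reproductive-only repeats were uneven. The median of 429 windows held 1, 146 windows held none, and the fullest held 53. The 43 fullest windows, chosen by this count, held 48.8% of the reproductive-only repeats and 16.0% of all repeats with similar reproductive counts. In the fullest window, 86.4% of the way along the numbering, they were 53 of 565 repeats with similar reproductive counts and held 19 distinct sets of counts, of which the commonest made up 39.6% of them. The second fullest, at 42.4%, held more distinct sets, 31 in 37 reproductive-only repeats of 362 such repeats. In the window at 31.5% they were 31 of 53 such repeats, or 58.5%, with 15 distinct sets of counts. That window held few repeats at this reproductive level, and most of those were reproductive-only.

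**Figure D3:**
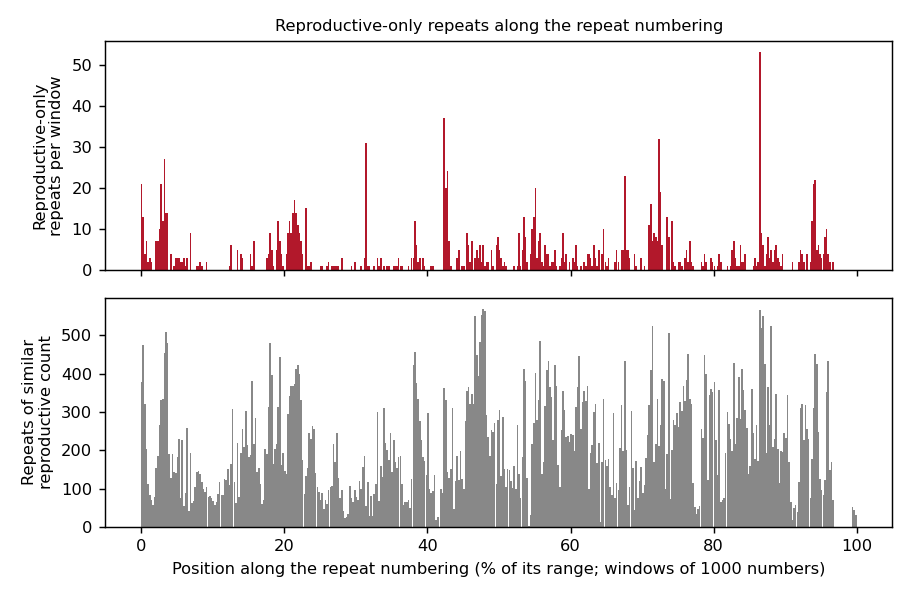
Number of reproductive-only repeats (upper axis) and of repeats with 5 or more counts in each reproductive library and a reproductive sum of up to 114 (lower axis) in windows of 1000 repeat numbers; the x axis is the position along the numbering in % of its range. Reproductive-only repeats peak in a few narrow windows, the fullest with 53. Repeats of similar count are uneven as well, and the same window holds 565 of them.

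Joining reproductive-only repeats at most 10 numbers apart gave 216 blocks of 2 or more with 563 repeats, and left 902 on their own. The largest block held 21 repeats in 23 consecutive numbers. In 19 of them the counts were 7, 6 and 12 in reproductive replicates 1, 2 and 3, against 0 in both juvenile libraries, and the block held 3 sets of counts in all. The 2 other repeats inside it had juvenile sums of up to 7. This block was close to a single count profile written under many numbers. It lies in the fullest window, so its repeats are counted there too.

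The second block held 14 repeats among 46 consecutive numbers, with 8 sets of counts. The commonest, in 6 repeats, was 25, 20 and 21 counts in reproductive replicates 1, 2 and 3, against 0 in both juvenile libraries. The 14 repeats alternated with 32 others, of which 8 had no juvenile count. The others had low counts, with medians of 5 over the reproductive libraries and 4 over the juvenile ones. One profile with 0, 2 and 0 counts in the reproductive libraries, against 2 and 3 in juvenile replicates 1 and 2, stood under 6 repeats between them. The highest repeat among them had 185, 185 and 197 counts in reproductive replicates 1, 2 and 3, against 54 and 47 in juvenile replicates 1 and 2. Within the same stretch of numbers, then, some repeats were counted in reproductive buds alone and some in both phases. Some had more counts in juvenile buds, though at low counts. The third block, 9 repeats in 14 numbers, had 27, 22 and 21 counts in 8 of them, against 0 in both juvenile libraries.

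**Figure D4:**
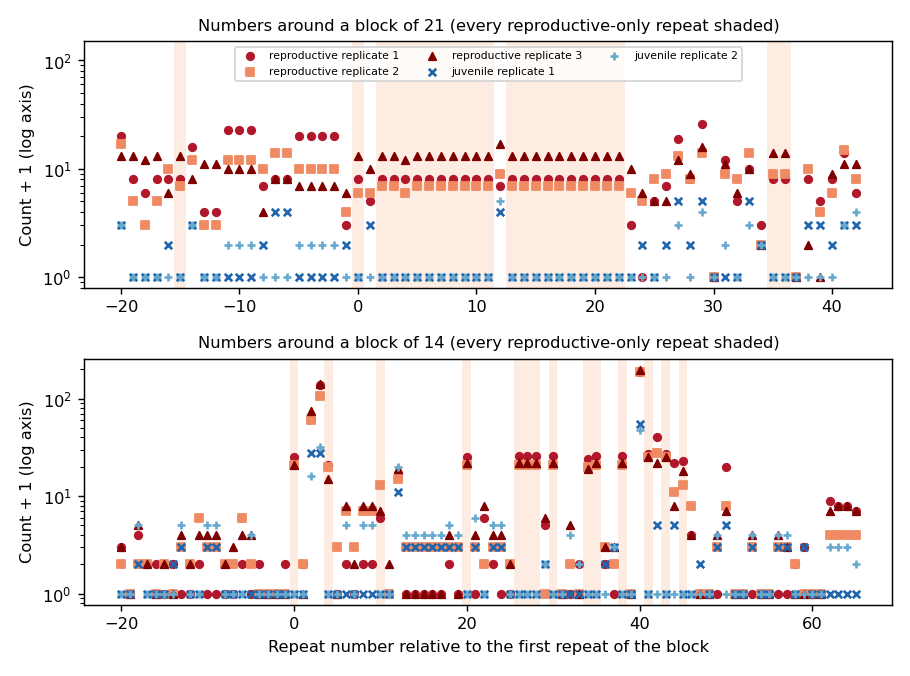
Counts plus 1 (log axis) of each repeat in the 3 reproductive and 2 juvenile libraries, by repeat number relative to the first repeat of the largest block (upper) and of the second block (lower), with every reproductive-only repeat shaded. The upper block repeats 7, 6 and 12 counts almost without change. The lower one alternates between reproductive-only repeats and others, most of them with juvenile counts.

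The repeats next to reproductive-only repeats were not chosen by the rule. Of the 2609 that touched one, 1449 had enough counts for edgeR's quasi-likelihood test, and 31.8% of these were higher and 6.97% lower in reproductive buds at an adjusted p under 0.05. Over all repeats that were not reproductive-only, the touching ones included, 20.9% of 281736 tested were higher and 24.3% lower. The median log2 fold change was 0.64 among the touching repeats and 0.07 among all that were not reproductive-only. At a distance of 100 numbers from one, 30.7% were higher and 8.85% lower, but these can lie nearer to another, since 77.8% of reproductive-only repeats had another within 100 numbers. Shared reads and the neighbourhood cannot be told apart in these counts, and the difference in shares was not tested.

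Of the reproductive-only repeats themselves, 523 passed the minimum of 10 counts in 2 libraries and entered the test, and 942 did not. All 523 that entered were called higher in reproductive buds by edgeR, where 21.1% of all 282619 features tested were. Without juvenile replicate 1 edgeR called 260 of them, and without juvenile replicate 2 it called 377. DESeq2 gave an adjusted p to 21 of them. The rule used this contrast, so nothing is read from these counts.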

How the data were processed

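The members and lists were chosen with earlier results of these data known. The authors deposited raw counts of reads for each feature, which are whole numbers and not normalized. Per the submitters' processing notes, Bowtie 1.1.2 was used; the build, the annotation of repeats and the handling of reads with several matches were not given in the sources used here. Columns were matched to samples by name and title.

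The test was edgeR 4.0.16 (R 4.3.3; quasi-likelihood, TMM, group as the only term, Benjamini-Hochberg adjusted p under 0.05) on features reaching 10 counts in 2 or more libraries, and was tested on simulated data. DESeq2 1.42.0 was an alternative. p-values measure the spread between libraries, which may be technical. Numbers given by depth are exact multinomial probabilities of the rule, given each repeat's total, summed over repeats (scipy 1.17.1). Named repeats are the 2 reproductive-only repeats of highest mean CPM with different counts; no juvenile-only repeat existed to name. The files do not pair repeats with element names.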

Additional observations from a re-analysis of the deposited data

How the results depend on the processing

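The number of reproductive-only repeats followed the thresholds: 247 with a minimum of 10 counts, 3781 with 3, 7392 with up to 1 count allowed in each juvenile library, and 702 with each distinct set of counts taken once. With 1 library left out it ran from 1892 to 9971, the number given by depth from 354 to 3138 (104 with distinct sets, 4.70 with sums alone), distinct sets of counts from 208 to 3617 (188 with the minimum of 10), and the share touching another from 16.2% to 27.2% (14.2% with the minimum of 10, 38.4% within 10 numbers, 4.03% without partners of identical counts). The highest values came without juvenile replicate 1. With a reproductive library left out, sets of counts covered only the remaining reproductive libraries. The 208 to 240 distinct sets found there are thus no like measure to the 702. Juvenile-only repeats numbered from 0 to 1, the 1 without juvenile replicate 1, and depth gave 0.000876 to 0.104 of them with 1 library left out, 0.0173 with sums alone and 5.19e-06 with distinct sets.

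By edgeR, 59564 features were higher and 68585 lower in reproductive buds. With sums alone 235325 were higher and 6957 lower, and the median log2 fold change moved to 1.19, against 0.08 with TMM. DESeq2 called 36375 higher. With 1 library left out, 31259 to 65384 were higher and 49753 to 70311 lower; where a single juvenile library remained, it was assumed to vary like the others. A replicate block gave 46749 higher and 55391 lower. Replicate numbers in the labels name no shared tree or day, and with 2 juvenile libraries their deviations mirror each other, so pairing could not be checked. Depth limits the lowest counts: a repeat with 15 reproductive counts would have 3.28 juvenile counts at an even TMM-scaled level.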
